A study of Mus musculus with 6 samples.

Results

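The alpha and beta tubulins were examined in mouse liver: 10 genes (Tubb2a, Tubb2b, Tubb3, Tubb4b, Tubb5, Tubb6, Tuba1a, Tuba1b, Tuba1c and Tuba8) of 22180 genes measured on the same arrays. They were taken by symbol, and where a gene had several probe sets the brightest by its average of all 6 arrays was used. All 10 were found. The family was chosen by the difference between the groups on these same arrays, in that earlier results had placed Tubb2a among the most strongly changed genes. That difference is therefore a description for these 10 genes and not a test.

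Liver RNA came from 6 male C57BL/6J mice, 1 Affymetrix whole-transcript array per mouse. The 3 Con mice are labelled Slug f/f, that is, with both copies of Slug, the transcription factor encoded by Snai2, flanked by loxP sites. The 3 HKO mice are their littermates labelled SlugHKO, in which the floxed gene was combined with albumin-CreERT2, a tamoxifen-dependent Cre recombinase under the albumin promoter that acts in hepatocytes. Every mouse of both groups received a diet with 60% of calories from fat, from 8 weeks of age and for 11 weeks. The Cre status of the Con mice and the use of tamoxifen are not stated in the labels. Snai2 itself read 7.74, 7.69 and 7.39 in Con and 4.62, 5.23 and 5.69 in HKO on the log2 scale. Markers of hepatocytes were bright, with means from 8.33 to 12.44 for the 10 genes from Alb to Hnf4a. Correlations between arrays over all genes lay between 0.986 and 0.992, and no array stood apart. The labels do not say more about how the mice were drawn, so the spread given is that between these 6 animals.

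Alpha and beta tubulin pair into dimers that assemble head to tail into microtubules, the hollow filaments on which kinesin and dynein motors carry vesicles, lipid droplets and organelles. In hepatocytes these tracks serve the secretion of plasma proteins and lipoproteins and the traffic to the bile canaliculus. Mammals carry several genes for each chain. The proteins differ mostly in the tail at the C-terminus, and the genes differ in the tissues that use them. Cells also adjust tubulin mRNA to the amount of free dimer through TTC5, which recognises tubulin chains as they leave the ribosome. Slug binds DNA at E-boxes with the core CAGGTG and is known mainly as a repressor.

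The sequences just upstream of the start are shown for the beta tubulins with the brightest probe sets, Tubb2a and Tubb5, since one differed widely between the groups and the other little. Both are taken from RefSeq for the build GRCm38.p6, 250 bases that end at the base before the start, read 5′ to 3′ on the gene's own strand. Tubb2a lies at chr13:34078009-34078258 on the minus strand and Tubb5 at chr17:35838302-35838551 on the minus strand. Capitals mark the letters CAGGTG or its reverse complement CACCTG, and TATAAA or its reverse complement TTTATA.
Tubb2a: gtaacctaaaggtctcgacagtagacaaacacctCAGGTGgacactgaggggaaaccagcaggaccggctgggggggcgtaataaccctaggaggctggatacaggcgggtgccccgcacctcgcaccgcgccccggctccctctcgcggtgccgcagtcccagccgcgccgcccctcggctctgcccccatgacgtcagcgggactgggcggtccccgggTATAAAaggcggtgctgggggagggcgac
Tubb5: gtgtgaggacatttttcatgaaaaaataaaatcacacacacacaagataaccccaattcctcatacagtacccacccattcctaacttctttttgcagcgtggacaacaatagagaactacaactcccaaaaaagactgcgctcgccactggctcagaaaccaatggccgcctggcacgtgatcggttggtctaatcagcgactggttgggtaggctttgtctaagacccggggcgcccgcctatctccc

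Of the 10 tubulin genes, 8 had a window in the RefSeq promoter table. Tubb2b and Tubb6 had none, so their upstream letters were not searched. The Tubb2a window held CAGGTG once, beginning 216 bases before the start, and TATAAA once, beginning 29 bases before it. None of the other 7 windows held either motif. Over all 32851 windows of this length, 17.2% held CAGGTG on either strand and 12.4% held TATAAA. The looser E-box CANNTG, which includes CAGGTG, occurred in 7 of the 8 tubulin windows and in 66.2% of all windows. In Tubb5 it occurred once, as CACGTG, 75 bases before the start. These matches describe the letters of a short window, and no binding was measured here.

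Among the beta tubulins, Tubb2a had by far the widest gap between the groups. Tubb2a is a beta chain best known from brain that many other tissues also make. Its probe set (17291767) read 8.30, 8.47 and 8.37 in the Con arrays and 5.90, 6.04 and 6.22 in the HKO arrays. Every HKO array lay more than 2 log2 units below every Con array, with 2.08 between the lowest Con and the highest HKO value. The means were 8.38 ± 0.08 (SD, n = 3) in Con and 6.05 ± 0.16 in HKO. The difference, HKO minus Con, was -2.32 ± 0.12 (moderated SE of the fit across all genes), a 5.01-fold lower array value. By size it was the lowest but 6 of the 22180 differences, and its p ranked 2 among all genes (limma adjusted p = 0.000356). These values are among those with which the family was picked, so nothing further rests on them. In a fit that shared no variance between genes, the adjusted p was 0.112 and no gene of the array passed.

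Over the 10 genes, 1 passed limma's adjusted p of 0.05, as lower in HKO, where 0.113% of all genes did, and 0 as higher, where 0.0902% did (0.203% in either direction). The HKO arrays lay below all Con arrays for 4 of the 10 (Tubb2a, Tubb6, Tuba1c and Tubb5), where 10.1% of all genes did so. They lay above all Con arrays for 1 (Tubb3), where 8.05% of all genes did so. The median difference of the 10 was -0.20, against -0.01 over all genes. Because the rule used this contrast, nothing is read from these counts.

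**Figure D1:**
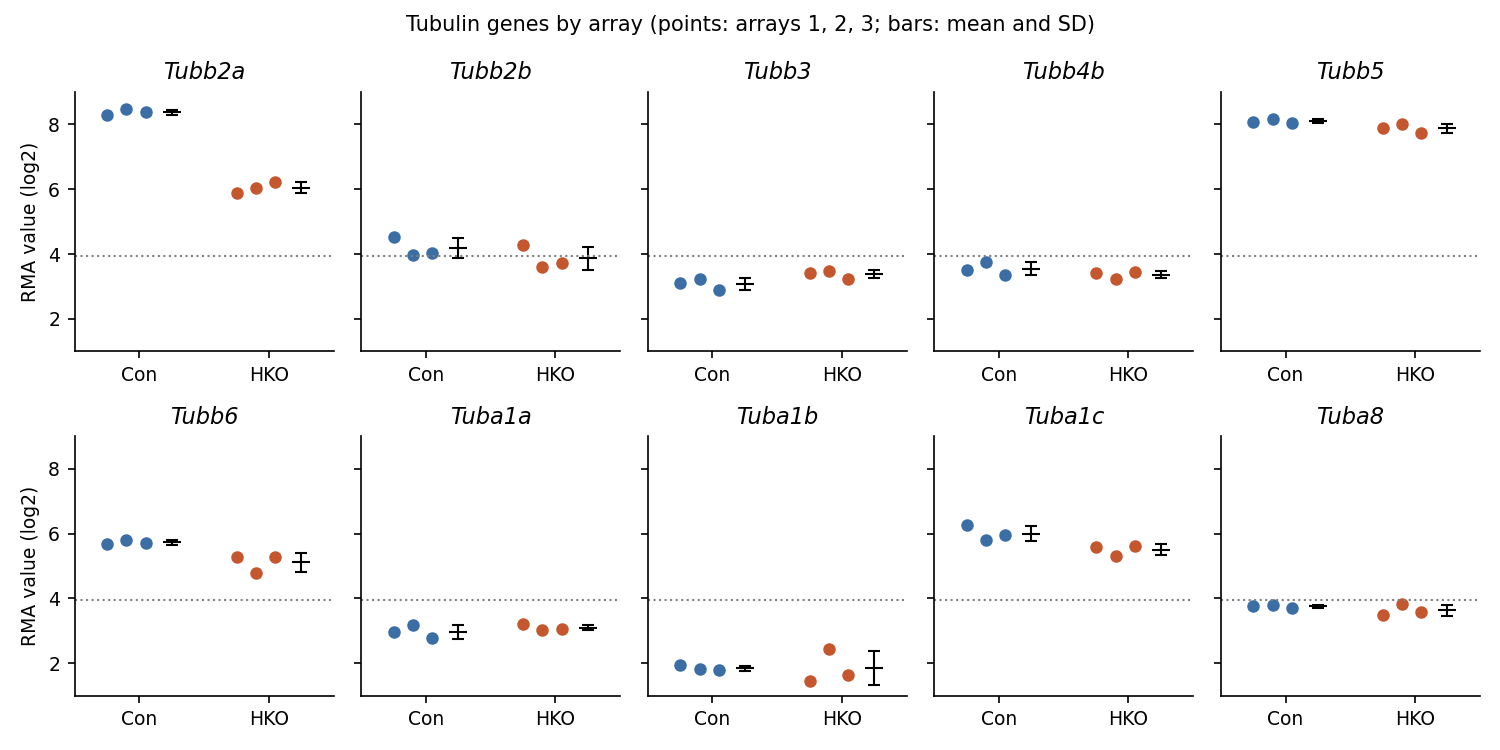
Log2 RMA values of the 10 tubulin genes in each array (points, replicates 1 to 3 from left to right), with mean and SD beside them; the dotted line is the median over all genes, 3.95. Tubb2a has means of 8.38 in Con and 6.05 in HKO, Tubb6 and Tuba1c lie lower in HKO by less than 1 unit, and the genes at or below the dotted line are not shown to be above background.

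Tubb6, a beta chain of the less conserved kind that is made outside the nervous system, read 5.68, 5.81 and 5.71 in Con and 5.27, 4.77 and 5.28 in HKO (probe set 17351465). The groups did not overlap, and HKO replicate 2 was the lowest array. The means were 5.73 ± 0.07 and 5.11 ± 0.29 (SD, n = 3 each), a difference of -0.62 ± 0.15, or 1.54-fold lower array values. The Tubb6 difference ranked 211 from the lowest among all genes.

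Tubb5, the beta chain made by most dividing and many resting cells, had bright and nearly level values. They were 8.08, 8.17 and 8.05 in Con and 7.90, 8.00 and 7.74 in HKO (probe set 17344444). The groups were apart by 0.05 only, and the difference was -0.22 ± 0.11. A second, dimmer Tubb5 probe set (mean 4.57) stood at 0.07 ± 0.15, and the mean of both probe sets differed by -0.08. Tubb5 and Tubb2a, both bright in Con, thus had differences of unlike size in the same livers.

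The gene next to Tubb2a, Tubb2b, encodes a nearly identical beta chain. On chromosome 13 a single annotated gene, the noncoding 4930447K03Rik, lies between them in GRCm38.p6. Tubb2b was dim, with 4.54, 3.97 and 4.05 in Con and 4.29, 3.61 and 3.73 in HKO. The groups overlapped, and the difference was -0.31 ± 0.21. A second Tubb2b probe set (mean 2.99) stood at -0.07 ± 0.11. The Tubb2b values thus did not show a difference of the size seen in Tubb2a. Probe sequences were not used here, and whether probes for one of these genes take signal from the other was not tested.

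The remaining beta chains lay below the median level over genes. Tubb4b, a beta chain used widely and in cilia, read 3.50, 3.77 and 3.37 in Con and 3.41, 3.24 and 3.45 in HKO. These arrays overlapped, with a difference of -0.19 ± 0.13. Tubb3, the beta chain used as a marker of neurons, read 3.10, 3.23 and 2.88 in Con and 3.43, 3.48 and 3.24 in HKO. It was the only one of the 10 with all HKO arrays above all Con arrays, a difference of 0.31 ± 0.13. The groups were apart by less than 0.01, and after a second quantile normalization they overlapped.

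Among the alpha tubulins, Tuba1c had the largest difference. Tuba1c is a widely made alpha chain, and its gene sits with those of Tuba1a and Tuba1b on chromosome 15. Its probe set (17314693) read 6.25, 5.81 and 5.94 in Con and 5.59, 5.30 and 5.62 in HKO. All HKO arrays were below all Con arrays, with 0.20 between the groups, and HKO replicate 2 was again the lowest. The means were 6.00 ± 0.23 and 5.50 ± 0.17 (SD, n = 3 each), a difference of -0.50 ± 0.15 or 1.41-fold lower array values. A second, dim Tuba1c probe set (mean 3.10) stood at -0.43 ± 0.21.

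The other alpha chains had no bright probe set. Tuba1a, known for its role in developing neurons, read 2.96, 3.19 and 2.77 in Con and 3.20, 3.02 and 3.07 in HKO, a difference of 0.13 ± 0.13. Its second probe set, with nearly the same mean level (2.98), stood at -0.52 ± 0.21, so the probe sets for Tuba1a disagreed in sign. Tuba1b, a main alpha chain of most cells, read 1.94, 1.83 and 1.78 in Con and 1.45, 2.45 and 1.64 in HKO. That mean lies above only 4.54% of all genes, and HKO replicate 2 stood highest while the other HKO arrays stood lowest. The Tuba1b difference of -0.01 ± 0.23 therefore gives no bound on this gene in liver. Tuba8, an alpha chain described in muscle and testis, read 3.78, 3.79 and 3.70 in Con and 3.48, 3.84 and 3.58 in HKO. The Tuba8 groups overlapped (-0.12 ± 0.12), and its second probe set (mean 2.22) stood at 0.11 ± 0.12.

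Of the 10 genes, 5 had a mean above the median over all genes, 3.95: Tubb2a, Tubb2b, Tubb5, Tubb6 and Tuba1c. Only 4 of them, without Tubb2b, lay above it on every array, and these are the 4 whose HKO arrays were all below the Con arrays. The other 5 are not shown to be above background. Array values compress the changes of dim genes, so the small differences of those 5 do not bound what the transcripts did. In bulk liver, fewer cells of a type and less RNA per cell cannot be told apart for any of these genes.

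**Figure D2:**
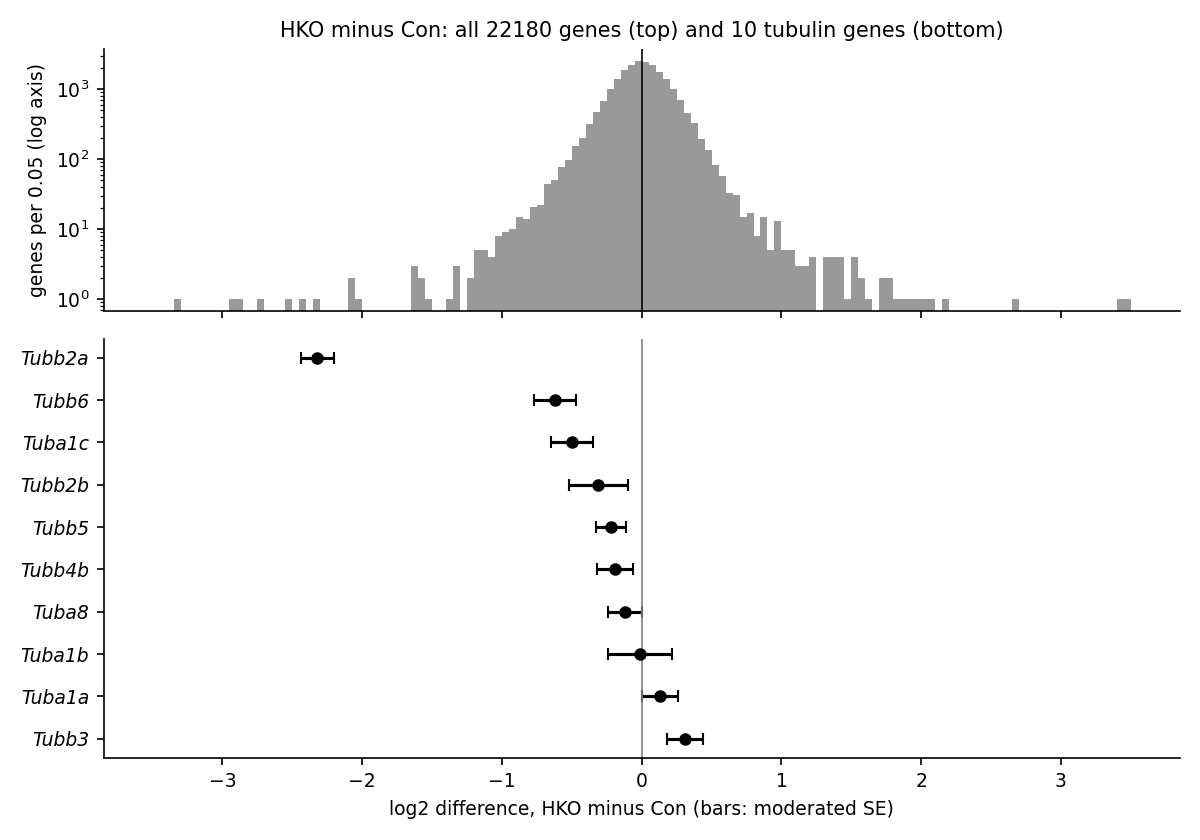
Top, the HKO minus Con log2 differences of all 22180 genes (number of genes per 0.05, log axis); bottom, the differences of the 10 tubulin genes with their moderated SE on the same axis. Tubb2a, at -2.32, lies in the sparse lower tail, and the other tubulin genes lie between -0.62 and 0.31.

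None of the other tubulins measured passed the test between the groups. These genes were not used in the choice of the 10. Of 10 further tubulin genes listed, 7 were measured by a probe set with a single symbol, and 0 of the 7 passed adjusted p 0.05 in limma, with 0 at an unadjusted p under 0.05. Of all genes 0.203% passed, so a count of 0 in 7 is near the background. In all 7 the arrays of the groups overlapped, as they did in 18146 of the 22180 genes, and the median difference was -0.02. Tubg1, the gamma tubulin that nucleates microtubules, was the brightest, with 6.92, 6.82 and 6.90 in Con and 7.17, 6.90 and 7.12 in HKO. Its difference was 0.18 ± 0.11 (adjusted p = 0.574, 95% interval -0.07 to 0.44).

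Its near copy Tubg2 was dim and varied among the Con arrays from 3.22 to 4.26, with a difference of 0.18 ± 0.27. The centriolar tubulins Tubd1 (delta) and Tube1 (epsilon) stood at -0.32 ± 0.20 and -0.14 ± 0.19. Tubb4a, a beta chain of brain, stood at -0.40 ± 0.22 with a Con mean of 3.79, below the median over genes. Tubb1, the beta chain of platelets and their precursors, stood at 0.13 ± 0.14, and Tubal3, an alpha-like chain, at -0.02 ± 0.16. The means of Tubb1 and Tubal3 also lay below the median over genes, so these small differences do not bound what the transcripts did. Tuba3a, Tuba3b and Tuba4a have only probe sets that carry a second symbol and were not analysed here.

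Genes that fold tubulin did not pass either. New tubulin chains are handled by prefoldin and the CCT chaperonin, and the cofactors Tbca to Tbce then build the dimer. Of 21 such genes 19 were measured, all with a mean above the median over genes, and 0 passed adjusted p 0.05 in limma. At an unadjusted p under 0.05, 1 was lower (5.26%, where 6.56% of all genes were) and 0 higher (5.31% of all genes). Their median difference was -0.06. All HKO arrays lay below all Con arrays for 3 of the 19 (15.8%) and above for 1 (5.26%). Of all genes 10.1% lay below and 8.05% above, and of genes above the median level 15.3% lay below, so these shares are near the background. The lowest p belonged to Tbcel, a tubulin chaperone relative that destabilises tubulin, at -0.25 ± 0.10 (adjusted p = 0.386). Tbca, the cofactor that holds free beta tubulin, stood at -0.18 ± 0.10 (0.539).

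The enzymes that mark tubulin tails, with the autoregulation factor Ttc5, went both ways. Of 22 genes 21 were measured, and 0 passed in limma. At an unadjusted p under 0.05, 3 were higher (14.3%, where 5.31% of all genes were) and 4 lower (19.0%, where 6.56% were). The median was 0.05. It was -0.11 when only genes with a mean above the median over genes were kept, which leaves 11 of the 21. The lowest p values were those of Ttll9 and Ttll5, ligases of the tubulin tyrosine ligase family that add glutamate chains. Ttll9 went from 3.43 in Con to 3.81 in HKO (0.38 ± 0.11, adjusted p = 0.241), both means below the median over genes. Ttll5 went from 5.40 to 5.78 (0.38 ± 0.12, 0.283). The shares at an unadjusted p are not matched for level.

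Of the gamma-tubulin ring and centrosome genes, 12 of 13 were measured and 0 passed in limma. All 12 had a lower mean in HKO, by 0.02 to 0.44 log2 units, where 51.8% of all genes did. The median was -0.08, and -0.04 after a second quantile normalization. Of the 12, 11 had a mean above the median over genes, and the share of all genes is not matched for level. All HKO arrays lay below all Con arrays for 2 of the 12 (16.7%) and above them for 0. Of genes above the median level 15.3% lay below, and of all genes 10.1% lay below and 8.05% above. At an unadjusted p under 0.05, 1 was lower (8.33%, near the 6.56% of all genes). That gene was Tubgcp2, a core subunit of the ring that caps the minus end, at -0.24 ± 0.10 (adjusted p = 0.404). Nin, which anchors microtubules at the centrosome, followed at -0.26 ± 0.15 (0.545).

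Proteins that bind microtubules and set their growth were represented by 46 of 48 listed genes. None of the 46 passed in limma, and the median was -0.12. At an unadjusted p under 0.05, 11 were lower (23.9%, where 6.56% of all genes were) and 0 higher (5.31% of all genes). Of the 46, 33 had a mean above the median over genes, and these shares of all genes are not matched for level. Tacc3, which stabilises spindle microtubules, went from 4.22 to 3.83 (-0.39 ± 0.10, adjusted p = 0.196). Fignl1, a relative of the severing enzyme fidgetin, went from 3.50 to 2.99 (-0.51 ± 0.13, 0.200), both means below the median over genes.

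Motor subunits were represented by 43 of 47 listed genes. Again 0 passed in limma, and the median was -0.13. At an unadjusted p under 0.05, 10 were lower (23.3%, where 6.56% of all genes were) and 1 higher (2.33%, where 5.31% were). All HKO arrays lay below all Con arrays for 16 of the 43 (37.2%, where 10.1% of all genes did), and for 11 after a second quantile normalization. Of the 43, 32 had a mean above the median over genes, and of genes above that level 15.3% lay below. The shares at an unadjusted p are not matched for level. Dctn1, the largest subunit of the dynactin complex that links dynein to cargo, went from 5.52 to 5.20 (-0.32 ± 0.09, adjusted p = 0.259). Klc3, a kinesin light chain, was the 1 gene higher at an unadjusted p under 0.05. Its difference was 0.44 ± 0.11 (adjusted p = 0.199) at means of 2.83 and 3.27, below the median over genes. Of the 43, 34 had a lower and 9 a higher mean in HKO. All HKO arrays lay above all Con arrays for 2 of the 43 (4.65%, where 8.05% of all genes did).

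Taking the modifying, centrosomal, binding and motor genes as a single list, 122 of 130 were measured and 0 passed in limma. At an unadjusted p under 0.05, 26 were lower (21.3%, where 6.56% of all genes were) and 4 higher (3.28%, where 5.31% of all genes were). In both directions together these were 30 genes, 15 without Con replicate 1 and 17 without HKO replicate 2, where the count over all genes went from 2632 to 2040 and 2324. Of the 122, 87 had a mean above the median over genes. In a fit of such genes only, 23 of the 87 were under an unadjusted p of 0.05 in either direction, where 2027 of 11041 genes were. All HKO arrays lay below all Con arrays for 33 of the 122 (27.0%), where 10.1% of all genes and 15.3% of genes above the median level did. After a second quantile normalization there were 27 such genes. The median of the list was -0.11 and ran from -0.13 to -0.07 over the alternatives in processing, against -0.01 for all genes. The lowest difference among the 122 was -0.51 and the highest 0.44.

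**Figure D3:**
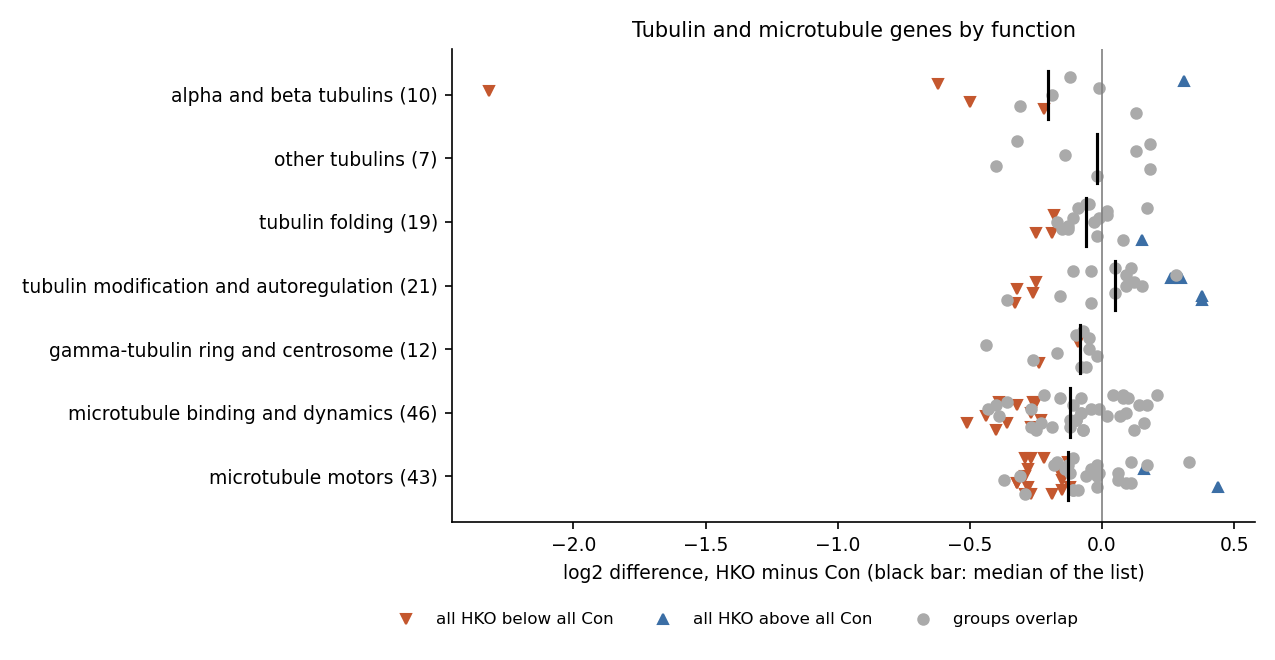
HKO minus Con log2 difference of each measured gene in 7 lists of tubulin and microtubule genes, with the number measured in parentheses, the median of each list as a black bar, and colours and symbols for whether the arrays of the groups overlap. Apart from Tubb2a at -2.32, every gene lies between -0.62 and 0.44.

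Markers of other liver cells were read on the same arrays, since several cell types make tubulin. Their values moved with the groups in part. The mean over the 10 stellate cell and fibroblast markers ran from 6.73 to 6.93 in Con and from 6.17 to 6.40 in HKO. Of these 10 markers, 8 had a lower mean in HKO (51.8% of all genes did), 1 passed in limma as lower (0.113% of all genes), and 6 had all HKO arrays below all Con arrays (10.1% of all genes). All 10 had means above the median over genes, and of genes above that level 15.3% had all HKO arrays below all Con arrays. The mean over 10 markers of recruited and lipid-associated macrophages ran from 4.91 to 5.11 in Con and from 4.14 to 4.57 in HKO. All 10 were lower in mean, 1 passed as lower, 6 were lower at an unadjusted p under 0.05 (6.56% of all genes) and 4 had all HKO arrays below all Con arrays. Of them, Ccr2, Ly6c2 and Itgax lay below the median over genes. The mean over 11 markers of proliferating cells ran from 3.95 to 4.01 in Con and from 3.58 to 3.70 in HKO, with 10 lower in mean and 7 below the median over genes. The differences of these list means were -0.53, -0.63 and -0.32. Single markers ran from -1.32 to 0.05, from -1.18 to -0.18 and from -0.89 to 0.04. Tubb2a differed by -2.32, Tubb6 by -0.62 and Tuba1c by -0.50. The part of these cell types in the tubulin values was not tested.

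The other marker lists differed by less than 0.5 in their means. The hepatocyte mean ran from 10.77 to 10.79 in Con and from 10.79 to 10.92 in HKO. The difference of the list mean was -0.08 for sinusoidal endothelium, -0.17 for Kupffer cells, -0.11 for cholangiocytes, -0.18 for neutrophils and -0.17 for T and NK cells. It was -0.12 for mesothelium, -0.12 for adipocytes and 0.01 for exocrine pancreas. B and plasma cell markers differed the other way, by 0.47. The HKO list means were all below the Con ones for sinusoidal endothelium, neutrophils and adipocytes and all above them for B and plasma cells, and overlapped for the others. The single markers did not all follow their list mean. A lower mean in HKO was found for 3 of 8 endothelial, 5 of 6 neutrophil and 2 of 5 adipocyte markers (51.8% of all genes). The adipocyte markers ran from -1.22 to 0.28 with a median of 0.15. Of these 5, 1 passed in limma as lower, where 0.113% of all genes did. All HKO arrays lay above all Con arrays for 2 (8.05% of all genes) and below for 1 (10.1% of all genes). The B and plasma cell markers ran from 0.02 to 1.42 with a median of 0.15. Slc4a1 (0.16) was the single red cell marker with a probe set. Neuron and glia markers, the cells in which Tubb3, Tubb2a and Tuba1a are best known, had a mean from 3.28 to 3.44 in Con and from 3.41 to 3.52 in HKO, and 8 of the 10 measured lay below the median over genes. Of the 10, 7 had a higher mean in HKO. At an unadjusted p under 0.05 in limma, 3 were higher (30.0%, where 5.31% of all genes were) and 0 lower (6.56% of all genes).

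**Figure D4:**
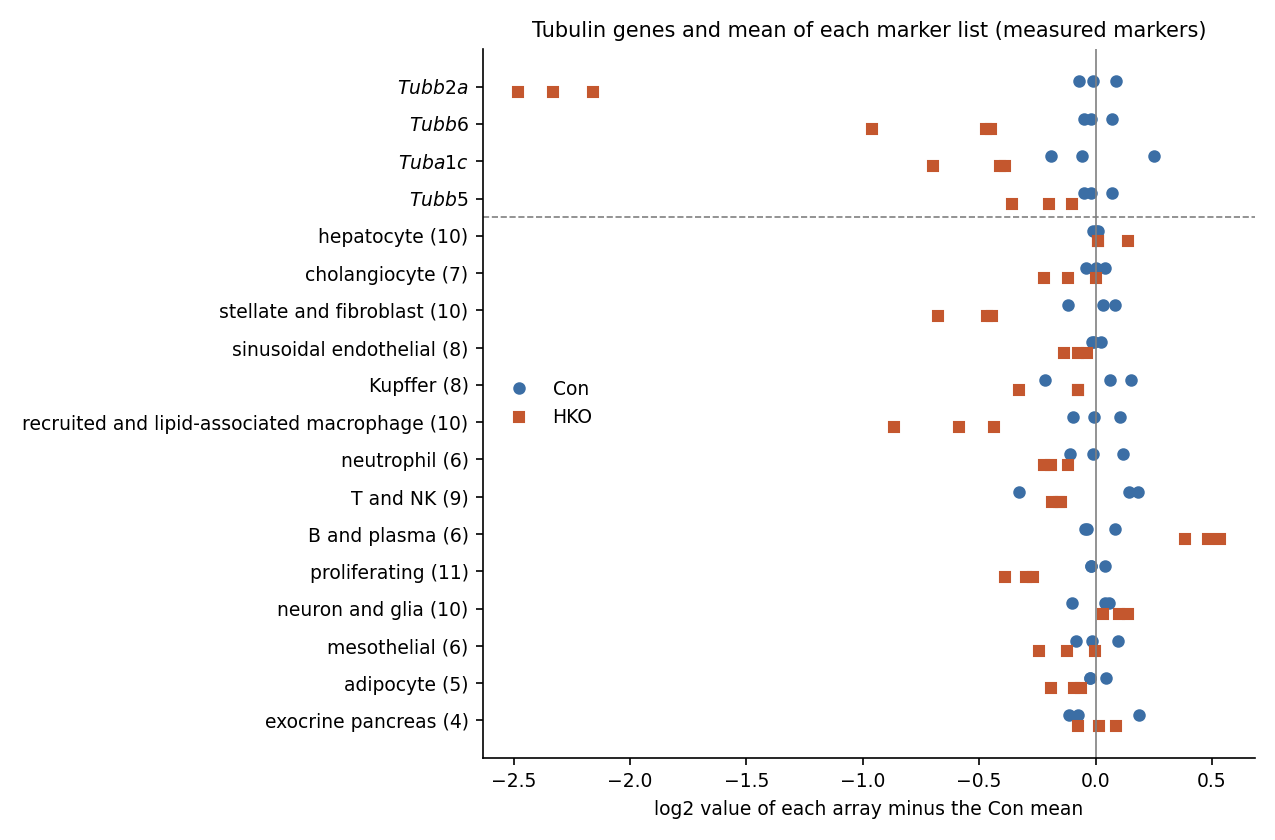
For 4 tubulin genes (above the dashed line) and the mean of each list of cell type markers (below it, number of measured markers in parentheses), the log2 value of each array minus the Con mean. The HKO arrays of Tubb2a stand at -2.48 to -2.16, further from the Con mean than those of any marker list. Tubb2a is a single gene in view because of this difference, and the lists are means over genes, so these sizes are not directly comparable.

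The genes whose values over the 6 arrays were nearest to those of Tubb2a were found by the root mean square difference between profiles, each gene set to its own mean. They were Anxa2 (0.15), Snai2 (0.25), Ly6d (0.31), Gprc5b (0.37), Mogat1 (0.38) and Slc22a27 (0.46). Anxa2, a calcium-dependent membrane-binding protein, read 6.52, 6.65 and 6.56 in Con and 4.33, 4.58 and 4.70 in HKO. As in Tubb2a, Con replicate 2 was the highest and HKO replicate 1 the lowest array. In Snai2, HKO replicate 1 was also the lowest and HKO replicate 3 the highest of the HKO arrays. Its Con arrays were in another order, with replicate 1 the highest (7.74) and replicate 3 the lowest (7.39). The lowest array was HKO replicate 1 in Mogat1 and Slc22a27 and HKO replicate 2 in Ly6d and Gprc5b. The nearest of the other 9 tubulins, Tubb6, was 0.87 away, and Tubb3 was the furthest, at 1.33. With 6 arrays and a large step between the groups, any gene with a step of like size comes out near, so these neighbours describe the step.

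**Figure D5:**
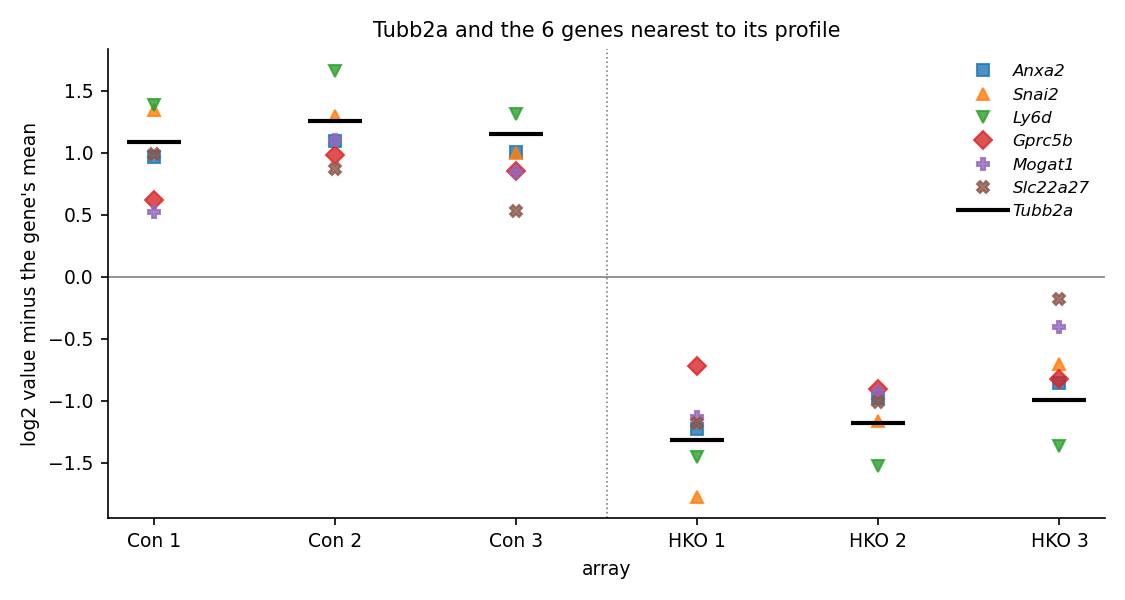
Log2 value minus the gene's own mean over 6 arrays, for Tubb2a (black dashes) and the 6 genes nearest to its profile (symbols). All 7 genes lie above their mean in the 3 Con arrays and below it in the 3 HKO arrays, and Anxa2 follows Tubb2a most closely, with a root mean square difference of 0.15.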

How the data were processed

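Liver RNA (400 ng per mouse) of 3 Con and 3 HKO mice was hybridised to 1 array each. Per the submitters' processing notes, the authors used RMA and R 3.3.0 to make the deposited table, which holds log2 values; RMA equalises the arrays' distributions and compresses changes of dim genes. No genome build or filter is named there. Arrays have no read depth, and their number limits the precision.

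Of 41345 probe sets, 23521 carried a single gene symbol in the platform annotation, 1814 several and 16010 none; 23328 of the first were found by Entrez identifier in RefSeq (GRCm38.p6), with 0 symbols changed. Each gene took its probe set with the highest mean, giving 22180 genes without a filter on low values. HKO was compared with Con in limma 3.58.1 (R 4.3.3; lmFit, eBayes, group as the only term), two-sided, Benjamini-Hochberg adjusted over all genes, threshold 0.05. Errors of differences are moderated SEs. In 10 simulations with 200 changed genes among 22180, the HKO against Con fit recovered 14.2% of changes of 0.5 log2 units, 69.3% of 1 and 96.8% of 2.

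The tubulin genes, the gene lists and the cell type markers were chosen with earlier results of these data known. Named genes are all tubulins measured, Snai2, in each other list the 2 genes with the lowest p (or up to 4 past the threshold), and the 6 genes nearest to Tubb2a in profile, predicted genes passed over. Promoter letters were searched on both strands. Figures were drawn with matplotlib 3.10.9.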

Additional observations from a re-analysis of the deposited data

How the results depend on the processing

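The Tubb2a difference lay between -2.41 and -2.24 in all 16 alternatives and passed adjusted p 0.05 in 15; without shared variance between genes 0 of the 10 tubulins passed (3 at an unadjusted p under 0.05). Leaving out 1 array kept the count of called tubulins at 1, with an adjusted p of Tubb2a from 0.00206 to 0.00560. Tubb2a was in view because of this difference, so all its refits, with the block fit below, are a description and not a test. Tubb2b, Tubb4b, Tubb5, Tubb6, Tuba1c and Tuba8 stayed negative and Tubb3 positive in every alternative run; Tuba1b took both signs, and Tuba1a was -0.20 for the mean over its probe sets. None of the other tubulin, folding or microtubule genes passed in any alternative.

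Over all genes 45 passed. The count was 139 (60 higher, 79 lower) among genes with a mean above the median, 215 (100 higher, 115 lower) with a variance trend and 0 without shared variance (2422 at an unadjusted p under 0.05), and it ran from 4 without Con replicate 2 to 32 without Con replicate 3. The replicate numbers in the titles are not said to pair mice. Deviations of same-numbered arrays correlated at 0.03, 0.02 and 0.02, each the best match for its arrays. The other combinations ran from -0.03 to 0.01, so all these values are small and do not settle whether the numbers pair mice. With the replicate number as a block 3 genes passed, 0 higher and 3 lower, Tubb2a among them (adjusted p = 0.00710). The causes of these shifts were not tested. Dim signal limits Tubb2b, Tubb3, Tubb4b, Tuba1a, Tuba1b and Tuba8.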
